A study of Mus musculus with 6 samples.

Results

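The protamines Prm1, Prm2 and Prm3, the transition proteins Tnp1 and Tnp2, and the spermatid linker histones H1fnt and Hils1 were examined in RNA of sperm nuclei and of whole sperm from mice. They were chosen by symbol, and 7 of the 23229 annotated genes in the count tables carried these names; each of the 7 was also present in the authors' table of RPKM, read values per transcript length. In these files, RPKM ratios between libraries lay close to ratios of raw counts, so they carry the larger depth of the whole-sperm library. The series asked how RNA is partitioned between the sperm nucleus and the rest of the cell. All sperm came from adult mice of the C57BL/6 transgenic line HP3.1, aged 4 months, and were taken from the cauda epididymis and vas deferens; the labels do not state what the transgene carries. For the nuclei group, heads were parted from tails by sonication and the nuclei were spun through sucrose and caesium chloride cushions with detergent. For the whole-sperm group, RNA was extracted from unfractionated cells of the same line that had been looked over for contaminating cells. There were 2 nuclei libraries and 1 whole-sperm library, each sequenced in 2 runs that share 1 column, so whole sperm has no spread of its own. Which animals gave which preparation is not labelled, and the spread between the nuclei libraries may be technical.

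In spermatids, the haploid cells that mature into sperm, most histones are removed from DNA and replaced first by transition proteins and then by protamines, small arginine-rich proteins that condense the sperm nucleus. The messenger RNAs are transcribed in round spermatids, stored, and translated later, after transcription has ceased. Mature sperm do not transcribe these genes, and the protamine transcripts they carry are remnants from the spermatid.

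Prm1, Prm2, Prm3 and Tnp2 lie side by side on mouse chromosome 16, all on the minus strand, and their transcripts span 8951 bases (build mm10, chr16:10787936-10796886). By GENCODE, the Prm1 transcript has 2 exons and 469 bases (chr16:10796326-10796886), that of Prm2 has 2 exons and 621 bases (chr16:10791380-10792105), that of Prm3 has 1 exon and 410 bases (chr16:10790505-10790914), and that of Tnp2 has 2 exons and 554 bases (chr16:10787936-10788660). Tnp1 lies apart on chromosome 1 (chr1:73015074-73015909, minus strand, 2 exons, 437 bases). H1fnt is a gene of 1 exon and 1308 bases on chromosome 15 (chr15:98255986-98257293, minus strand), and Hils1 one of 1 exon and 864 bases on chromosome 11 (chr11:94967593-94968456, plus strand). The coding sequences differ in base make-up as the proteins do: arginine codons made up 54.9% of the 51 codons of Prm1 and 35.5% of the 107 codons of Prm2. In Tnp1 they were 11 of 55 codons and in Tnp2 13.7% of 117, in H1fnt 16.3% of 398 and in Hils1 7.06% of 170. Prm3 stood apart from both protamines with 2 arginine codons among 101 (1.98%).

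Every extract was tested by RT-PCR for Prm2, and the primers show which part of the transcript that assay read. The capitals mark the start codon of Prm2.
Prm2 forward primer: gcaccATGgttcgctaccg
Prm2 reverse primer: gtggcctcacatgatgttgct
The forward primer matched bases 103 to 121 of the spliced transcript and the reverse primer bases 502 to 522, giving a product of 420 bases. The product crosses the junction after the first exon of 366 bases, where an intron of 105 bases is removed; neither primer itself lies over the junction. Neither primer was found in the transcript of another of the 7 genes.

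The promoters of the 4 clustered genes and of Tnp1 are shown because these transcripts led the group in all libraries or, for Prm3, lie within the cluster. Each line gives the last 100 bases before the transcript start in RefSeq (GRCm38.p6, minus strand), and 7 of 7 genes were matched there, H1fnt under its name H1f7. GENCODE and RefSeq do not place every start alike. The last 63 bases of the Prm1 window lie inside the GENCODE transcript given above. They hold its TATA and all but the first base of its TGACTTCA. The last 10 bases of the Tnp1 window and the last 5 of the Tnp2 window also lie inside their GENCODE transcripts. Capitals mark TGANNTCA, a pattern of cyclic AMP response elements, and TATA where it begins 20 to 40 bases before the start.
Prm1, chr16:10796824-10796923: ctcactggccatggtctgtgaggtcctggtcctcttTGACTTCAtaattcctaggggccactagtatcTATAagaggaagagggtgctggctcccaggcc
Prm2, chr16:10792106-10792205: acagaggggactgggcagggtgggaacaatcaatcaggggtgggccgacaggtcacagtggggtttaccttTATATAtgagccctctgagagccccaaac
Prm3, chr16:10790915-10791014: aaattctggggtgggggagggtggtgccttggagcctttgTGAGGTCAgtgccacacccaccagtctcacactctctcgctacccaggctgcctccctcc
Tnp1, chr1:73015900-73015999: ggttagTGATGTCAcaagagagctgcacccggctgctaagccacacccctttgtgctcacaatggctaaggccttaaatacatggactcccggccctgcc
Tnp2, chr16:10788656-10788755: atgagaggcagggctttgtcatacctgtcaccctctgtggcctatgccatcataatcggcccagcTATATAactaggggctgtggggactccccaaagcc
TGANNTCA, which reads the same way on both strands, was searched in the 250 bases before each start and began 64 bases before the start in Prm1, 60 in Prm3 and 94 in Tnp1. It was present in 3 of the 7 genes, against 11.9% of the 32851 promoter windows in the table. TATA on the strand of the gene was present in the stated range in Prm1, Prm2 and Tnp2, against 5.81% of windows, and both patterns were present in Prm1 alone of the 7, against 0.743% of windows. These counts use the RefSeq starts. With the GENCODE start of Prm1, neither of its matches would lie wholly before the start. A match describes the letters and does not show that a factor binds there.

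Over genes and assembled regions the nuclei libraries held 5487306 and 6648848 counts, and the whole-sperm library 8316345, and 13897, 12259 and 14630 annotated genes had a count. The quasi-likelihood test of edgeR called 11 of 16720 features higher in nuclei and 16 lower at an adjusted p under 0.05. The common biological coefficient of variation, the relative spread shared by all features, was 1.30. Levels are given as TMM-normalised CPM, as the deposited RPKM, or counts per 1000 spike-in counts, the spike-ins being synthetic RNAs of the ERCC set. CPM is a share of a library's counts, scaled by edgeR's TMM factors, and takes no account of transcript length. The median log2 difference of all features between nuclei and whole sperm was 0.27 by TMM, -0.59 in the limma test on log2(RPKM + 0.1) and -1.16 with spike-in scaling, so differences relative to that median are given as well.

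The transition protein transcripts were the most abundant of the 7 in nuclei, and Tnp2 had the largest fitted difference of the 7 between nuclei and whole sperm by CPM and by RPKM, though not with spike-in scaling. Tnp2 was the 1 gene of the 7 that was above whole sperm in both nuclei libraries by CPM, by RPKM and per spike-in count. Per spike-in count alone, 11.1% of tested genes had both above, or 15.9% of those of at least 100 CPM. The 4 abundant genes Tnp1, Tnp2, Prm1 and Prm2 and the less abundant Prm3 all had higher CPM in both nuclei libraries than in whole sperm. So did 26.1% of all tested genes, and 65.1% of the 939 with a mean of at least 100 CPM. The linker histone genes H1fnt and Hils1 were scarce and lay on either side of whole sperm by CPM. By the edgeR test over all features, 0 of 7 were called; the share called among all features was 0.0658% in the higher direction and 0.0957% in the lower. At an unadjusted p under 0.05, 1 of 7 passed, Tnp2, against 3.77% of all features higher and 2.07% lower. By that p, Tnp2 ranked 426 among the 14397 annotated genes tested.

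Tnp2, which encodes the larger transition protein, had 5407 and 9453 counts in nuclei 1 and nuclei 2, against 2636 in whole sperm. Its level was 1031.8 and 1417.1 CPM in nuclei, against 304.4 CPM in whole sperm, so on this scale the nuclei libraries lay nearer to each other than to whole sperm. The mean in nuclei was 1224.5 ± 272.4 CPM (SD, n = 2), which is 4.02-fold the whole-sperm level. The fitted log2 difference was 2.01 ± 0.855 (SE), or 1.74 relative to the median of all features, and did not pass in edgeR (adjusted p = 0.611). DESeq2 called it higher (log2 2.05 ± 0.558 SE, adjusted p = 0.0255), in a fit that called 1.38% of 9431 features higher and 0.382% lower. In RPKM, Tnp2 stood at 574.8 and 1003.3 in nuclei, against 290.6 in whole sperm, 1.98-fold and 3.45-fold the whole-sperm level, with nuclei 1 nearer to whole sperm in RPKM units and nearer to nuclei 2 on the log2 scale. The limma test on log2(RPKM + 0.1) gave 1.39 ± 0.695 (SE, adjusted p = 0.612). Per 1000 spike-in counts Tnp2 had 9.18 and 12.3 counts in nuclei, against 7.23 in whole sperm, log2 differences of 0.34 and 0.77, again with nuclei 1 nearer to whole sperm. The direction was shared by these 3 scales and both nuclei libraries, while the log2 ratio of a nuclei library to whole sperm ran between 0.34 and 2.22 on the log2 scale.

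Tnp1 encodes the smaller transition protein. It had 7602 and 5348 counts in nuclei, against 4970 in whole sperm, or 1450.7 and 801.7 CPM, against 574.0 CPM. Both nuclei libraries were higher by CPM, but nuclei 2 lay nearer to whole sperm than to nuclei 1. The mean in nuclei was 1126.2 ± 458.9 CPM (SD, n = 2), and the fitted log2 difference of 0.97 ± 0.809 (SE) did not pass (edgeR adjusted p = 0.909). In RPKM the values were 1084.8 and 735.9 in nuclei, against 690.8 in whole sperm, again with nuclei 2 close to whole sperm. Per 1000 spike-in counts Tnp1 had 12.9 and 6.96 counts in nuclei, against 13.6 in whole sperm, so on that scale both nuclei libraries were lower. The exons of Tnp1 overlap those of 1700027A15Rik, an antisense gene on the opposite strand which had 983 and 491 counts in nuclei, against 2118 in whole sperm. Whether strand was used in counting is not given in the sources used here, so reads of the pair cannot be told apart.

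**Figure D1:**
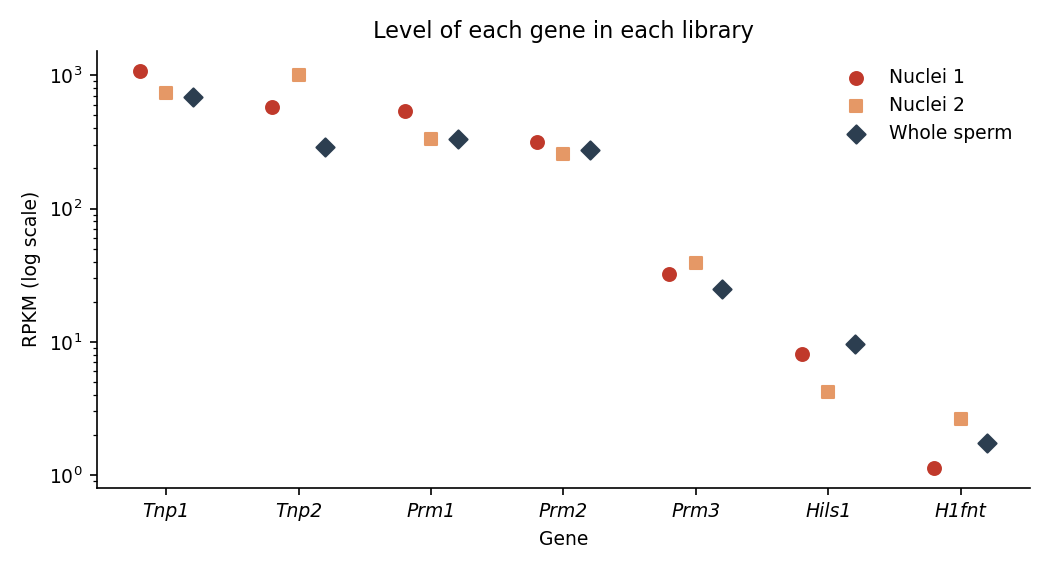
Level of each of the 7 genes in each library, as deposited RPKM on a log axis, with 1 point per library (nuclei 1, nuclei 2, whole sperm). Tnp2 is the gene with both nuclei libraries farthest above whole sperm (574.8 and 1003.3, against 290.6), while Hils1 has both below it (8.11 and 4.2, against 9.66).

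Of the protamines, Prm1 and Prm2 encode the proteins that finally package sperm DNA. Prm1 had 3253 and 1947 counts in nuclei, against 1998 in whole sperm, and 620.8 and 291.9 CPM in nuclei, against 230.8 CPM. The nuclei libraries differed more from each other than nuclei 2 did from whole sperm. The mean in nuclei was 456.3 ± 232.6 CPM (SD, n = 2), with a fitted log2 difference of 0.98 ± 0.764 (SE, edgeR adjusted p = 0.909). In RPKM Prm1 stood at 538.0 and 332.9 in nuclei, against 335.5 in whole sperm, so that nuclei 2 was no longer above it. Per 1000 spike-in counts it had 5.52 and 2.53 in nuclei, against 5.48, with the nuclei libraries on either side of whole sperm.

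Prm2, the target of the RT-PCR primers shown above, had 3104 and 2874 counts in nuclei, against 2764 in whole sperm. These raw counts varied least among the abundant members but take no account of depth. By CPM it had 592.3 and 430.8 in nuclei, against 319.2 in whole sperm, both above. The fitted log2 difference was 0.68 ± 0.756 (SE, edgeR adjusted p = 0.909), or 0.41 relative to the median of all features. In RPKM the nuclei libraries lay on either side of whole sperm, at 313.8 and 255.9, against 276 in whole sperm. Per 1000 spike-in counts both were lower, at 5.27 and 3.74 in nuclei, against 7.59 in whole sperm.

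Prm3 sits in the cluster between Prm2 and Tnp2 but encodes an acidic protein that is not a DNA-packaging protamine. It had 212 and 268 counts in nuclei, against 185 in whole sperm. By CPM the nuclei libraries were nearly equal, at 40.5 and 40.2, against 21.4 in whole sperm, a difference larger than the gap between the nuclei libraries. The fitted log2 difference was 0.92 ± 1.26 (SE, edgeR adjusted p = 0.936), with a standard error that comes from all features and not from this pair. In RPKM both nuclei libraries were also above, at 32.1 and 38.7, against 24.8 in whole sperm. Per 1000 spike-in counts both were below, at 0.36 and 0.349, against 0.508 in whole sperm. Per length, Prm3 was the least abundant of the 4 clustered genes in every library.

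**Figure D2:**
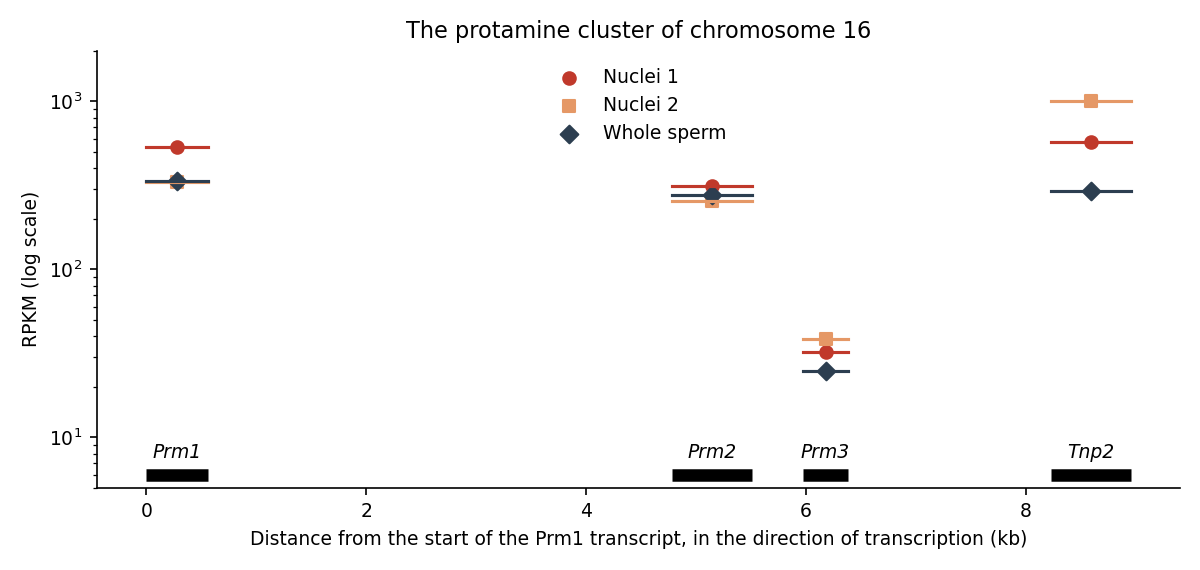
RPKM on a log axis of the 4 genes of the chromosome 16 cluster, placed at their distance from the start of the Prm1 transcript in kb; bars stand for transcripts and the points above them for nuclei 1, nuclei 2 and whole sperm. Prm3 lies far below its neighbours in each library (32.1 and 38.7 in nuclei, against 24.8 in whole sperm), and the libraries part most at Tnp2.

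The linker histone genes had the fewest counts of the 7 in every library. H1fnt, which encodes a spermatid linker histone found at the apical pole of the nucleus, had 21 and 68 counts in nuclei, against 36 in whole sperm. Its level was 4.01 and 10.2 CPM in nuclei, against 4.16 CPM in whole sperm, on either side, and the fitted log2 difference was 0.77 ± 4.14 (SE, edgeR adjusted p = 1.0). Hils1, another spermatid linker histone gene, had 109 and 66 counts in nuclei, against 126 in whole sperm. By CPM it also lay on either side, at 20.8 and 9.89 in nuclei, against 14.6 in whole sperm (log2 0.08 ± 2.1 SE, edgeR adjusted p = 1.0). In RPKM Hils1 was the 1 gene of the 7 with both nuclei libraries below whole sperm, at 8.11 and 4.2, against 9.66. The same held for 51.1% of tested genes. H1fnt had 1.13 and 2.62 RPKM in nuclei, against 1.75 in whole sperm. Hils1 lies within the gene Sgca on the opposite strand, without shared exons, and Sgca had 67 and 165 counts in nuclei, against 37 in whole sperm.

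By the deposited RPKM, the order of the 7 genes differed between libraries only among the top 3. In nuclei 1 the order was Tnp1, Tnp2, Prm1 and Prm2, in nuclei 2 it was Tnp2, Tnp1, Prm1 and Prm2, and in whole sperm Tnp1, Prm1, Tnp2 and Prm2; Prm3, Hils1 and H1fnt followed in every library. Within nuclei, the means of Tnp1 (910.4 ± 246.7 RPKM) and Tnp2 (789.1 ± 303.1 RPKM) did not differ beyond their spread (SD, n = 2). The means of Prm1 (435.4 ± 145.0 RPKM) and Tnp2 overlapped at 1 SD as well. Within each nuclei library, however, Tnp2 was above Prm1, at 574.8 against 538.0 in nuclei 1 and 1003.3 against 332.9 in nuclei 2. Among all annotated genes, Tnp1 ranked 3 and 9 by RPKM in nuclei 1 and nuclei 2, against 14 in whole sperm, and Tnp2 ranked 4 and 5, against 29. Prm1 ranked 6 and 19, against 24, and Prm2 14 and 29, against 30. All 4 therefore stood among the 30 highest genes by RPKM in each library.

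The direction of the group depended on how the libraries were scaled. By CPM, 5 of 7 genes had both nuclei libraries above whole sperm and 2 lay on either side, against 26.1% of 14397 tested genes with both above and 41.2% with both below. Among the 939 genes with a mean of at least 100 CPM, the share with both nuclei libraries above was 65.1% and with both below 19.1%; the 4 members of that abundance, Tnp1, Tnp2, Prm1 and Prm2, had 4 of 4 above. Higher CPM in nuclei was thus common among abundant genes. In RPKM, 3 of 7 were above (Tnp1, Tnp2 and Prm3), 1 was below and 3 lay on either side, against 18.8% above and 51.1% below among tested genes; of the 4 abundant members, Tnp1 and Tnp2 were above, against 42.3% above and 29.0% below among genes of that abundance. Per spike-in count, 1 of 7 was above, 5 were below and Prm1 lay on either side, against 11.1% above and 66.1% below among tested genes, or 15.9% and 62.2% among those of at least 100 CPM. With spike-in scaling in edgeR, 0 of 7 were called, against 0.0239% of features called higher and 3.26% lower. In the edgeR fit all 7 log2 differences were above 0, with a median of 0.92, and 7089 of 14397 genes (49.2%) were above 0, with a median of -0.04. Spike-in scaling moved all features together, so it carries the signs of these genes with it. Places relative to the median are therefore nearly the same by TMM and by spike-in scaling whatever the genes do. Relative to the median of all features, Tnp2 was at 1.74 by TMM and 1.73 by spike-in scaling, and Tnp1 at 0.7 and 0.71. Prm1 was at 0.72 and Prm2 at 0.41 by both, Prm3 at 0.65, H1fnt at 0.5 and Hils1 at -0.19 by both. In the limma test on RPKM the same differences were 1.97 for Tnp2, 0.96 for Tnp1, 0.92 for Prm1, 0.63 for Prm2, 1.09 for Prm3, 0.58 for H1fnt and -0.13 for Hils1. Hils1 was thus the 1 gene of the 7 below the median of all features, assembled regions included, on these scales. Its edgeR log2 difference of 0.08 by TMM was above the median of -0.04 over annotated genes alone. The amount of spike-in added to each extract is not given in the sources used here. A bulk library does not separate fewer cells of a type from less RNA per cell.

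**Figure D3:**
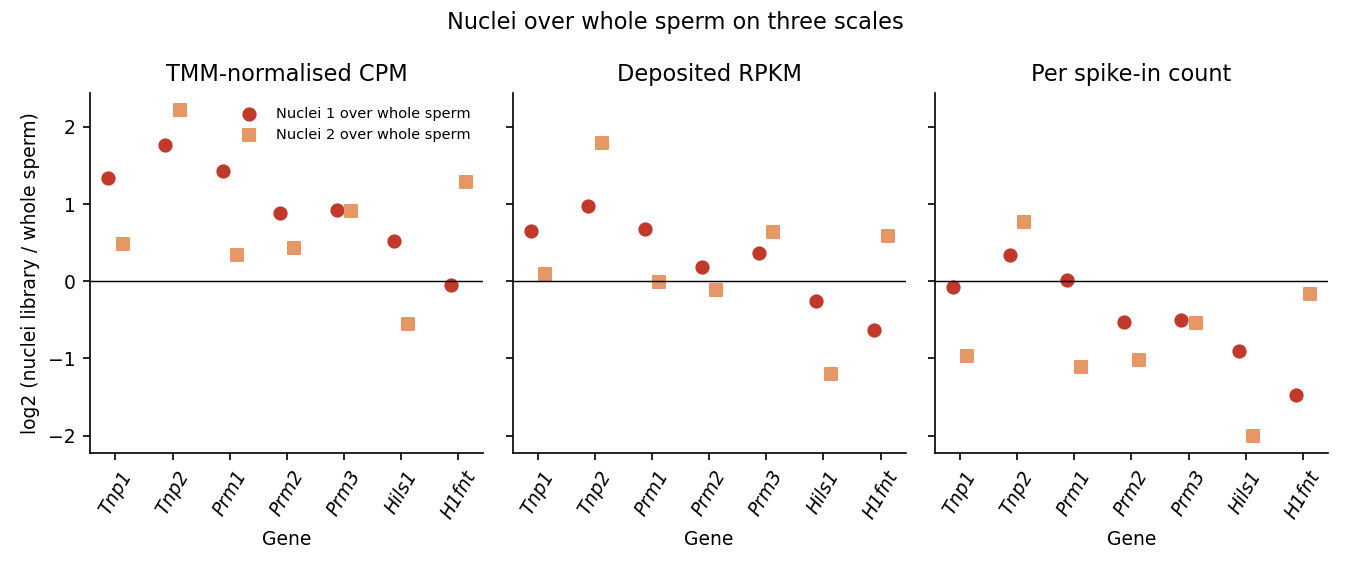
Log2 ratio of nuclei 1 and of nuclei 2 to whole sperm for each gene, by TMM-normalised CPM, deposited RPKM and counts per spike-in count; the line at 0 marks equality. Tnp2 has both points above 0 in each panel (1.76 and 2.22, 0.98 and 1.79, 0.34 and 0.77), whereas most other genes lie below 0 per spike-in count.

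Shares among the 7 genes inside a library need no scaling between libraries, while a share of all counts amounts to scaling by library size. Nuclei 1 held 19708 counts of the 7 genes (0.359% of all, exact Clopper-Pearson 95% interval 0.354 to 0.364) and nuclei 2 held 20024 (0.301%, 0.297 to 0.305), against 12715 for whole sperm (0.153%, 0.15 to 0.156). By this share of all counts, the nuclei libraries were nearer to each other than to whole sperm, and both were above it. Per spike-in count, 5 of the 7 genes were below whole sperm in both nuclei libraries, 1 was above and 1 lay on either side. Among tested genes, 66.1% were below and 11.1% above on that scale. The make-up of the counts of the 7 genes was not alike. Tnp2 made up 27.4% of them in nuclei 1 (26.8 to 28.1) and 47.2% in nuclei 2 (46.5 to 47.9), against 20.7% in whole sperm (20 to 21.4). Tnp1 made up 38.6% in nuclei 1 (37.9 to 39.3) and 26.7% in nuclei 2 (26.1 to 27.3), against 39.1% in whole sperm (38.2 to 39.9). By this measure nuclei 1 and whole sperm matched for Tnp1 within their intervals, and nuclei 2 stood apart. Prm2 had a lower share in both nuclei libraries, at 15.7% (15.2 to 16.3) and 14.4% (13.9 to 14.8), against 21.7% in whole sperm (21.0 to 22.5). The shares are parts of the same whole, so a higher share of Tnp2 lowers the others. By CPM, Prm2 was above whole sperm in both nuclei libraries. Prm1 took 16.5% and 9.72% in nuclei, against 15.7% in whole sperm. Intervals cover counting error only.

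**Figure D4:**
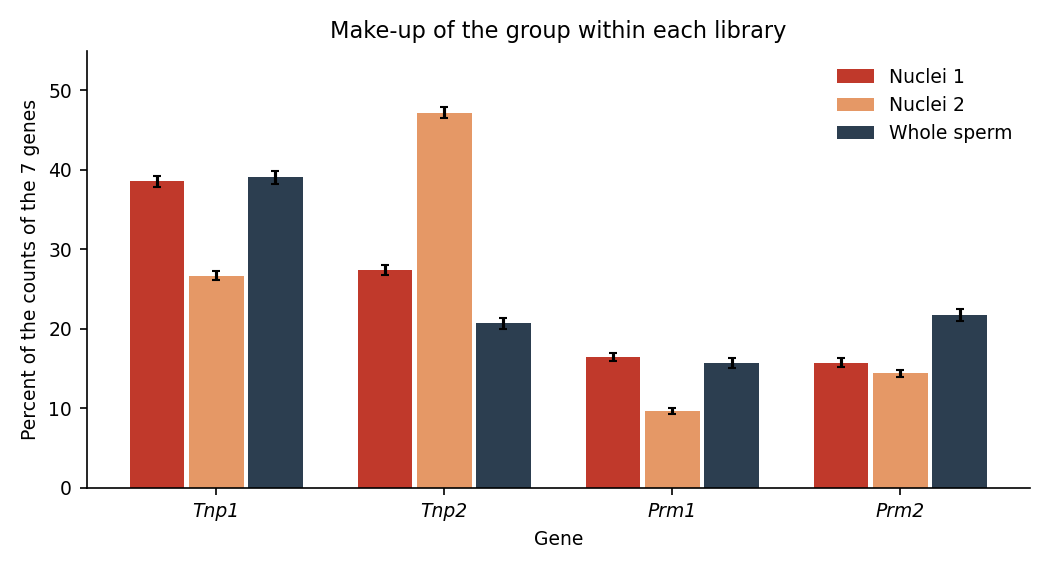
Percent of the counts of the 7 genes taken by Tnp1, Tnp2, Prm1 and Prm2 in nuclei 1, nuclei 2 and whole sperm, with exact 95% binomial intervals of counting error. Tnp2 is higher in both nuclei libraries (27.4% and 47.2%, against 20.7%) and Prm2 is lower in both (15.7% and 14.4%, against 21.7%). The shares are parts of the same whole, so they depend on each other.

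Ratios between pairs of genes also differed between the nuclei libraries. Of the counts of Tnp1 and Tnp2 together, Tnp1 held 58.4% in nuclei 1 (95% interval 57.6 to 59.3) and 36.1% in nuclei 2 (35.4 to 36.9), against 65.3% in whole sperm (64.3 to 66.4). The nuclei libraries differed from each other by more than nuclei 1 differed from whole sperm, and with 2 libraries against 1 no exact permutation test can reach 0.05. Of the counts of Prm1 and Prm2, Prm1 held 51.2% in nuclei 1 (49.9 to 52.4) and 40.4% in nuclei 2 (39.0 to 41.8), against 42.0% in whole sperm (40.6 to 43.4), so whole sperm lay between the nuclei libraries and close to nuclei 2. The ratio of Tnp2 to Prm2 counts, genes of the same cluster, was 1.74 and 3.29 in nuclei, against 0.954 in whole sperm. The ratio of Tnp1 to Prm1 counts varied least, at 2.34 and 2.75 in nuclei, against 2.49 in whole sperm. Of the linker histone counts, H1fnt held 16.2% in nuclei 1 (10.3 to 23.6) and 50.7% in nuclei 2 (42.0 to 59.5), against 22.2% in whole sperm (16.1 to 29.4). These are ratios of counts and not of levels per length.

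The count tables also held rows spelled PRM1, PRM2, PRM3 and TNP2, in the capitals used for human genes, beside the mouse rows. The deposited RPKM values did not include these rows. The line is transgenic, but the sources used here do not say what the transgene carries or what these rows count, so whether they hold transgene reads cannot be told. Nor is it stated how a read that matches both copies was assigned, and the counts of Prm1, Prm2, Prm3 and Tnp2 are uncertain to that extent. PRM1 had 142.7 and 107.6 CPM in nuclei, against 53.5 CPM in whole sperm (log2 1.23 ± 0.862 SE, edgeR adjusted p = 0.909). PRM2 had 170.0 and 270.6 CPM in nuclei, against 120.1 CPM in whole sperm (log2 0.88 ± 0.778 SE, adjusted p = 0.909). Both nuclei libraries were thus above whole sperm for either row, and neither passed the test. Of the counts of PRM1 and Prm1 together, PRM1 held 18.7% in nuclei 1 (95% interval 17.5 to 19.9) and 26.9% in nuclei 2 (25.3 to 28.7), against 18.8% in whole sperm (17.3 to 20.4). Of PRM2 and Prm2, PRM2 held 22.3% in nuclei 1 (21.0 to 23.6) and 38.6% in nuclei 2 (37.2 to 40.0), against 27.3% in whole sperm (25.9 to 28.8). PRM3 lay the other way, with 0 counts in both nuclei libraries, against 86 in whole sperm. With a floor of 3 counts per library, it was at least 17.3-fold lower in nuclei 1 and 22.1-fold lower in nuclei 2 (edgeR adjusted p = 0.909 for the row). TNP2 had 0 counts in either nuclei library and 2 in whole sperm, and was not tested.

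**Figure D5:**
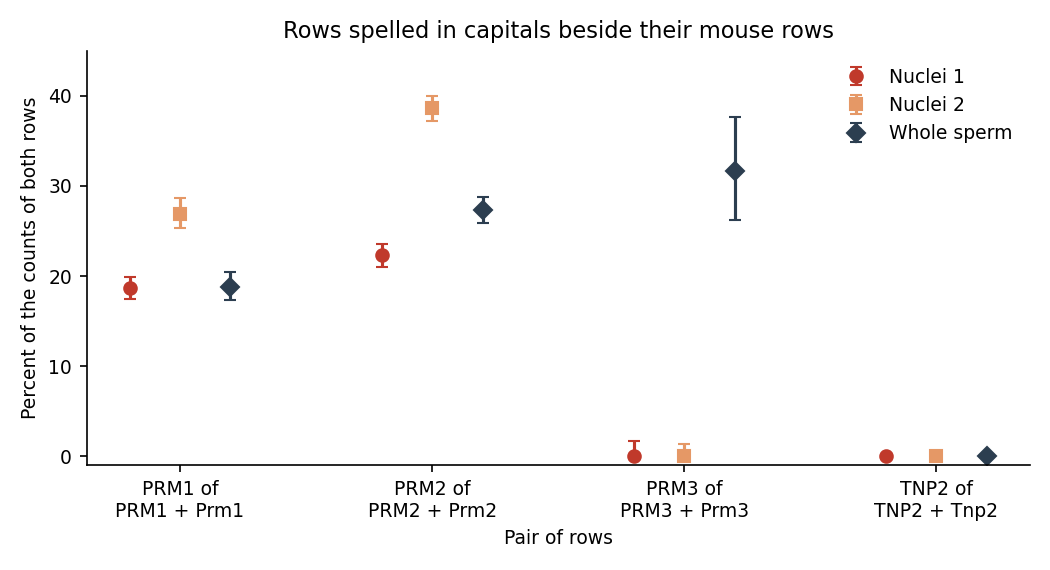
Percent of the counts of a capital-letter row and its mouse row that the capital-letter row held, in nuclei 1, nuclei 2 and whole sperm, with exact 95% binomial intervals of counting error. PRM1 and PRM2 were counted in every library (26.9% and 38.6% in nuclei 2), PRM3 in whole sperm alone (31.7%), and TNP2 was close to 0 in each.

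The genes nearest in profile were sought among 935 annotated genes with a mean of at least 100 CPM, by the distance of their centred log2(CPM + 1) values over the 3 libraries to the mean of Tnp1, Tnp2, Prm1 and Prm2. The 5 closest were Wasf2 (distance 0.0273), Ewsr1 (0.0744), Uchl1 (0.0902), PRM1 (0.0926) and Med15 (0.0967). Wasf2, an actin regulator gene, had 678.6 and 485.4 CPM in nuclei, against 271.8 CPM in whole sperm. The members themselves lay farther from their own mean: 40 genes were closer than Tnp1, 48 than Prm2, 79 than Prm1 and 421 than Tnp2. Tnp2 was the least typical of the 4, at a distance of 0.979.

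Genes that act with the 7 were read from lists by role. Among the other linker histones, 7 of 9 were tested, 3 above and 4 below 0, with a median log2 difference of -1.93 and none called. Both nuclei libraries were below whole sperm for 4 of the 7 and above it for 0, against 41.2% and 26.1% of all tested genes. Hist1h1a and Hist1h1c, genes of somatic linker histones, led the list in whole sperm. Hist1h1a was at 7.06 and 21.0 CPM in nuclei, against 53.5 CPM in whole sperm. Hist1h1c was at 14.3 and 3.0 CPM, against 56.4 CPM (log2 -2.7 ± 1.44 SE, edgeR adjusted p = 0.898). Hist1h1t, the testis linker histone, had 0 counts in nuclei 1 and 36.4 CPM in nuclei 2, against 11.5 CPM in whole sperm. H1f0, the replacement linker histone, had 63 and 46 counts in nuclei, against 70 in whole sperm.

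Of 24 listed factors that open or replace nucleosomes in spermatids, 22 were in the tables and tested; 6 were above 0 and 16 below, with a median of -0.39 and none called. Chd5, a chromatin remodeller needed for the exchange of histones in spermatids, led the list in both nuclei libraries. It had 1305.7 and 3076.6 CPM in nuclei, against 595.6 CPM in whole sperm (log2 1.88 ± 0.914 SE, edgeR adjusted p = 0.795; DESeq2 adjusted p = 0.07). Jmjd1c, a demethylase family gene, had 767.5 and 1116.7 CPM in nuclei, against 623.8 CPM in whole sperm (log2 0.59). Ep400, a remodeller subunit, and Tssk6, a testis kinase, had log2 differences of -0.34 and -0.11.

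Regulators of protamine and transition protein transcripts were split, with 10 of 19 tested genes above 0 and 9 below, a median of 0.07 and none called. Crem, the activator that binds cyclic AMP response elements of spermatid promoters, had 63.7 and 86.3 CPM in nuclei, against 153.8 CPM in whole sperm (log2 -1.04 ± 0.79 SE, edgeR adjusted p = 0.909). Kdm3a, a demethylase that acts at the Prm1 and Tnp1 promoters, had 202.1 and 322.3 CPM in nuclei, against 114.5 CPM (log2 1.2). Ybx2, which binds stored protamine transcripts, had 60.9 and 94.4 CPM in nuclei, against 69.1 CPM, on either side. Ddx4, a germ cell RNA helicase, had 209.2 and 147.7 CPM in nuclei, against 62.1 CPM.

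Of 8 neighbours of the chromosome 16 cluster, 5 were tested, 3 above and 2 below 0, with a median of 0.15 and none called. Clec16a, a gene of autophagy and mitophagy, had 141.0 and 74.5 CPM in nuclei, against 97.1 CPM in whole sperm, on either side. Rmi2, a genome stability gene, had 35.5 and 9.74 CPM in nuclei, against 4.27 CPM (log2 2.4 ± 2.23 SE, edgeR adjusted p = 0.909). Snn had a log2 difference of 0.89 and Txndc11 of -0.47.

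Other transcripts of haploid spermatids had a median of 0.42, with 13 of 23 tested genes above 0, 10 below and none called. In 11 both nuclei libraries were above whole sperm and in 6 both were below, against 26.1% and 41.2% of all tested genes. Many genes of this list are abundant, and among tested genes with a mean of at least 100 CPM those shares were 65.1% and 19.1%. The outer dense fibre gene Odf2 had 456.7 and 652.1 CPM in nuclei, against 315.1 CPM in whole sperm (log2 0.82). Cabyr, a calcium-binding protein gene of the fibrous sheath, had 383.0 and 558.3 CPM in nuclei, against 221.3 CPM (log2 1.09). Spem1, named after its value was seen, had 306.1 and 248.1 CPM in nuclei, against 61.6 CPM in whole sperm. Its log2 difference of 2.17 ± 0.83 (SE, edgeR adjusted p = 0.471) was larger than that of Tnp2 (2.01). The mitochondrial capsule gene Smcp was lower in both nuclei libraries, at 430.5 and 413.1 CPM, against 606.5 CPM (log2 -0.52), and Hook1, a gene of the manchette, had a log2 difference of -0.13.

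Transcripts of the duct epithelium moved with the fraction. Of 20 markers of the epididymal and vas deferens epithelium, 14 were tested, all 14 below 0 with a median of -2.26; 12 had both nuclei libraries below whole sperm, against 41.2% of tested genes, and 2, Crisp1 and Cldn8, fell by the edgeR test, against 0.0957% of features. Their summed level was 2764.2 and 2803.6 CPM in nuclei, against 17240.7 CPM in whole sperm, and 5 and 7 of the 20 were at 0 in nuclei 1 and nuclei 2, against 6 in whole sperm. The secreted protein gene Crisp1 fell to 487.8 and 525.3 CPM in nuclei, against 6452.5 CPM in whole sperm (edgeR adjusted p = 0.0241). The tight junction gene Cldn8, named after its value was seen, fell to 17.2 and 6.75 CPM, against 156.8 CPM (edgeR adjusted p = 0.0416). Akr1b7, a reductase gene of the vas deferens, had 816.8 and 835.7 CPM in nuclei, against 5560.2 CPM. The part of these epithelial transcripts in the higher CPM of the 7 genes in nuclei was not tested. Markers of sperm and spermatids summed to 1803.7 and 1990.2 CPM in nuclei, against 1396.1 CPM in whole sperm, with 7 of 10 above 0 and a median of 0.92; Izumo1 was at 0 in nuclei 1. Markers of spermatogonia and spermatocytes summed to 354 and 234 CPM in nuclei, against 155 CPM. Ddx4 held 209.2 and 147.7 CPM of that sum, against 62.1 CPM. Of these 10 markers, 3 had both nuclei libraries above whole sperm and 3 had both below, against 26.1% and 41.2% of tested genes. Leukocyte markers summed to 18.1 and 12.6 CPM in nuclei, against 35.6 CPM, with 6 and 4 of 10 at 0, against 2 in whole sperm. Smooth muscle and stroma markers summed to 139.7 and 80.7 CPM, against 138.6 CPM. Of the 8 tested, 3 were above in both nuclei libraries and 5 below, against the same 26.1% and 41.2% of tested genes. Sertoli and Leydig cell markers summed to 67.4 and 98.0 CPM, against 186.5 CPM. Clu held most of that sum, at 39.7 and 94.4 CPM, against 185.3 CPM. Sox9 went the other way, at 27.5 and 3.6 CPM, against 1.27 CPM. Of the erythrocyte genes in the tables, Alas2 alone had counts, with 0 and 4 in nuclei, against 3 in whole sperm.

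The authors also deposited an adjusted whole-sperm column. In 25610 of 25610 rows it matched a subtraction, to within 0.5: the average of both nuclei libraries taken from the count in whole sperm, with negative results set to 0. It set 6 of the 7 genes to 0 and left Hils1 with 39 of 126 counts (31.0%). Together the 7 genes kept 39 of 12715 counts (0.307%), against 40.8% of counts over all features. Among all rows with a whole-sperm count, 34.1% were set to 0. Raw counts enter this subtraction without scaling for depth, and 6 of the 7 genes had mean counts in nuclei above those of whole sperm. In this column the protamine, transition protein and H1fnt transcripts are listed at 0, although whole sperm held 36 to 4970 counts of each.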

How the data were processed

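Counts per gene or assembled region are whole numbers deposited by the authors without normalization, 1 column for each of the 3 libraries. A further column deposited by the authors, of adjusted whole-sperm values, was treated as a score. RPKM values were computed and deposited by the authors, and how depth enters them is not stated. The submitters' processing notes name build mm10 and the tools HTSeq, DESeq2, bedtools, SAMtools 0.1.19, TopHat2 2.0.12, Cufflinks 2.1.1 and CASAVA 1.8.2; their roles and the strand setting are not stated there. RPKM per count, relative to whole sperm, had a median log2 of -0.033 in nuclei 1 and -0.034 in nuclei 2. The SD was 0.423 and 0.446 over 6061 genes. The RPKM comparison thus lies close to one of raw counts, and the larger depth of whole sperm is not taken out of it.

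From the counts, edgeR 4.0.16 (R 4.3.3) was fitted to all 16720 features left by filterByExpr, with TMM factors, the quasi-likelihood test and Benjamini-Hochberg adjustment over all features at 0.05. There is 1 residual degree of freedom, so the fit assumes for whole sperm the spread seen between nuclei preparations, pooled over features, and standard errors are not those of single genes. The alternatives used DESeq2 1.42.0 and limma 3.58.1 (RPKM values, pseudocounts 0.1 and 1), other scalings and filters, and each nuclei library alone. The scripts were tested on simulated data. Spike-ins stayed out of library sizes; 23 shared by all tables were used for spike-in scaling, which assumes equal amounts. Reads outside features (34.4% of the whole-sperm table's reads) and ambiguous reads (1.97%) were left out. Intervals are exact Clopper-Pearson intervals and cover counting error only.

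The 7 genes, the lists and the tests were chosen with earlier results of these data known. From each list, the 4 genes with the highest mean CPM and any gene called were eligible to be named. Spem1 was named outside this rule. Positions come from GENCODE vM21 and promoters from RefSeq.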

Additional observations from a re-analysis of the deposited data

Results flagged for a closer look

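Rows spelled in capitals, outside the comparison of the 7 mouse genes, held counts above the limit of 3 that a count of 0 allows. The nuclei preparations gave the PRM1 row 748 and 718 counts, against 463 in whole sperm. The PRM2 row had 891 and 1805 counts in nuclei, against 1040 in whole sperm. The PRM3 row had 0 counts in both nuclei libraries, against 86 in whole sperm. The labels give no source for these counts, and their source was not tested. Groups of 2 and 1 libraries are too small to search for outlying samples.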

How the results depend on the processing

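Of 69 values of the 7 genes under alternatives with a test, 56 kept their direction and side of the threshold, 12 reversed and 1, Tnp2 under DESeq2, passed (log2 2.05, adjusted p = 0.0255), so the count of members called went to 1 there and stayed at 0 elsewhere. Spike-in scaling reversed Prm1 (-0.44), Prm2 (-0.75), Prm3 (-0.52), Tnp1 (-0.46), H1fnt (-0.67) and Hils1 (-1.35), a scaling that lowered the median of all features to -1.16 and left the 7 genes' places relative to it within 0.01. Limma on log2(RPKM + 0.1) reversed H1fnt (-0.01) and Hils1 (-0.72), with or without a filter; log2(RPKM + 1) gave Hils1 -0.63, and library size alone -0.02. Features called higher (11 in edgeR) numbered 6 with library size alone, 4 with spike-in scaling, 130 with DESeq2, and 0 with a mean of at least 10 CPM or limma. Features called lower (16) numbered 545 with spike-in scaling, 36 with DESeq2, and 0 with a mean of at least 10 CPM or limma. At an unadjusted p under 0.05 these counts of 0 had 431 higher and 277 lower features (mean of at least 10 CPM, a filter that left no value for H1fnt), and 269 and 2103, 183 and 2921, or 295 and 2538 under limma with pseudocount 0.1, pseudocount 1 and no filter. The cause was not tested.

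Each nuclei library alone, which leaves values without a test, gave log2 differences of 1.76 to 2.22 for Tnp2, 0.34 to 1.43 for Prm1, 0.43 to 0.89 for Prm2, 0.90 to 0.91 for Prm3, 0.48 to 1.34 for Tnp1, -0.05 to 1.24 for H1fnt and -0.54 to 0.51 for Hils1. The share of Prm1 in Prm1 and Prm2 averaged 45.8% in nuclei by counts (40.4 to 51.2 by library) and 59.9% by RPKM; in whole sperm it was 42.0% by counts, 54.9% by RPKM and 48.9% by counts per length. The share of Tnp1 in Tnp1 and Tnp2 averaged 47.2% in nuclei (36.1 to 58.4) and in whole sperm was 65.3% by counts, 70.4% by RPKM and 70.5% by counts per length. The adjusted column kept 39 counts of the 7 genes where the unadjusted one has 12715. No paired analysis was possible because the labels do not link the whole-sperm preparation to either nuclei preparation. H1fnt, at 21 to 68 counts, is limited by depth, and whole sperm has no replicate.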
